A study of Xenopus laevis with 2 samples.

Results

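The genes examined encode the Nodal, BMP and GDF ligands of the TGF-β superfamily and the Nodal antagonist Lefty. Every gene of the RefSeq v10.1 table was taken whose symbol started with nodal or lefty, or with bmp or gdf followed by a number, which gave 46 of 44456 genes. All 46 are protein-coding, with 11 nodal, 2 lefty, 19 bmp and 14 gdf genes. The pseudotetraploid frog Xenopus laevis carries 2 subgenomes named L and S, and 27 of the genes lie on L chromosomes and 19 on S chromosomes. Neighbouring nodal genes less than 100 kb apart were treated as 1 unit, which left 2 nodal clusters holding 7 genes and 39 single genes, 41 units in all.

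The series holds 1 group of 2 biological replicates. Wild-type embryos received 2.3 ng of the pRN3P_AID-Dam-only construct at the 1-cell stage, labelled as Dam mRNA, and 500 whole embryos per replicate were taken at the 256-cell stage, 4.5 h after fertilization and before zygotic genome activation (ZGA). Chromatin accessibility was profiled with CATaDa, in which free Dam methylase, bound to no targeting protein, methylates GATC sites wherever DNA is open in the cells that hold it. The mark therefore builds up over the cleavages after injection and averages over every cell of the embryo, so that animal, vegetal, dorsal and ventral cells cannot be told apart. All embryos carried Dam, and non-injected embryos were not analysed here.

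Nodal ligands act through activin-type receptors with a Tdgf1 co-receptor and through Smad2 and Smad3, and induce mesoderm and endoderm in the early embryo. BMP ligands and most GDF ligands of the Gdf5 to Gdf7 type signal through Smad1, Smad5 and Smad9 and give ventral fates, while secreted antagonists such as Noggin and Chordin shield the dorsal side. In Xenopus, nodal5 and nodal6 are among the first zygotic genes to be transcribed, in vegetal cells, and gdf1, known as Vg1, is a maternal mRNA localized to the vegetal cortex. The product of bmp1 is no ligand but a Tolloid-type protease that cleaves Chordin. It was kept because the rule on symbols takes it.

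A peak present in both replicates, sharing at least 1 bp, lay in the gene or within 10 kb on either side of it at 46 of 46 ligand genes, against 95.1% of the 34461 protein-coding genes on the 18 assembled chromosomes, a share near that background. The share of ligand genes was 80.4% with flanks of 5 kb, 56.5% in the gene alone and 76.1% with only the stronger 50% of peaks. The ligand units held 249 peaks in replicate 1 and 212 in replicate 2, with 1 to 21 peaks per unit and replicate. Of these, 67.9% in replicate 1 and 78.8% in replicate 2 had a partner in the other replicate, against 66.6% and 77.8% of all peaks on the assembled chromosomes. Peaks at the ligand loci were also of ordinary strength, with a median fold enrichment over the peak caller's background of 4.35 in replicate 1 and 4.59 in replicate 2, against 4.34 and 4.50 over all peaks. Replicate 1 held 325974 peaks and replicate 2 held 277551 peaks genome-wide. Sequencing depth is unknown, and no test between conditions exists for a single group, so the values below are a description with the coding genes as background.

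The share of a locus that lay in peaks, counted over the gene and its flanks of 10 kb, averaged 5.37% in replicate 1 and 4.90% in replicate 2 over the 41 units, a mean of 5.14% ± 0.337 (SD, n = 2 replicates). Dam marks GATC sites alone, and neither covered shares nor absent peaks are corrected for local GATC density, whose part in differences between loci or homeologs was not tested. Taken gene by gene, the 46 ligand genes averaged 5.08% with a median of 4.92%, against a mean of 5.15% and a median of 4.96% for all coding genes. The units ranged widely, between 1.19% at bmp3.L and 11.9% at nodal6.S, with an SD over units of 2.26. Values of the same unit in the 2 replicates differed by 0.968 percentage points at the median, against 1.05 for all coding loci. Spearman's rho between the replicates was 0.675 over the 41 units and 0.745 over all coding loci, as a description, since units share library and peak caller. In the plot of coverage by locus most units fall within the middle 90% of coding loci. In the mean of both replicates 1 of 46 ligand genes, nodal6.S, lay above the 95th percentile of coding loci (9.35%) and 1, bmp3.L, lay below the 5th (1.59%), where each tail holds 5% of coding loci by construction.

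**Figure D1:**
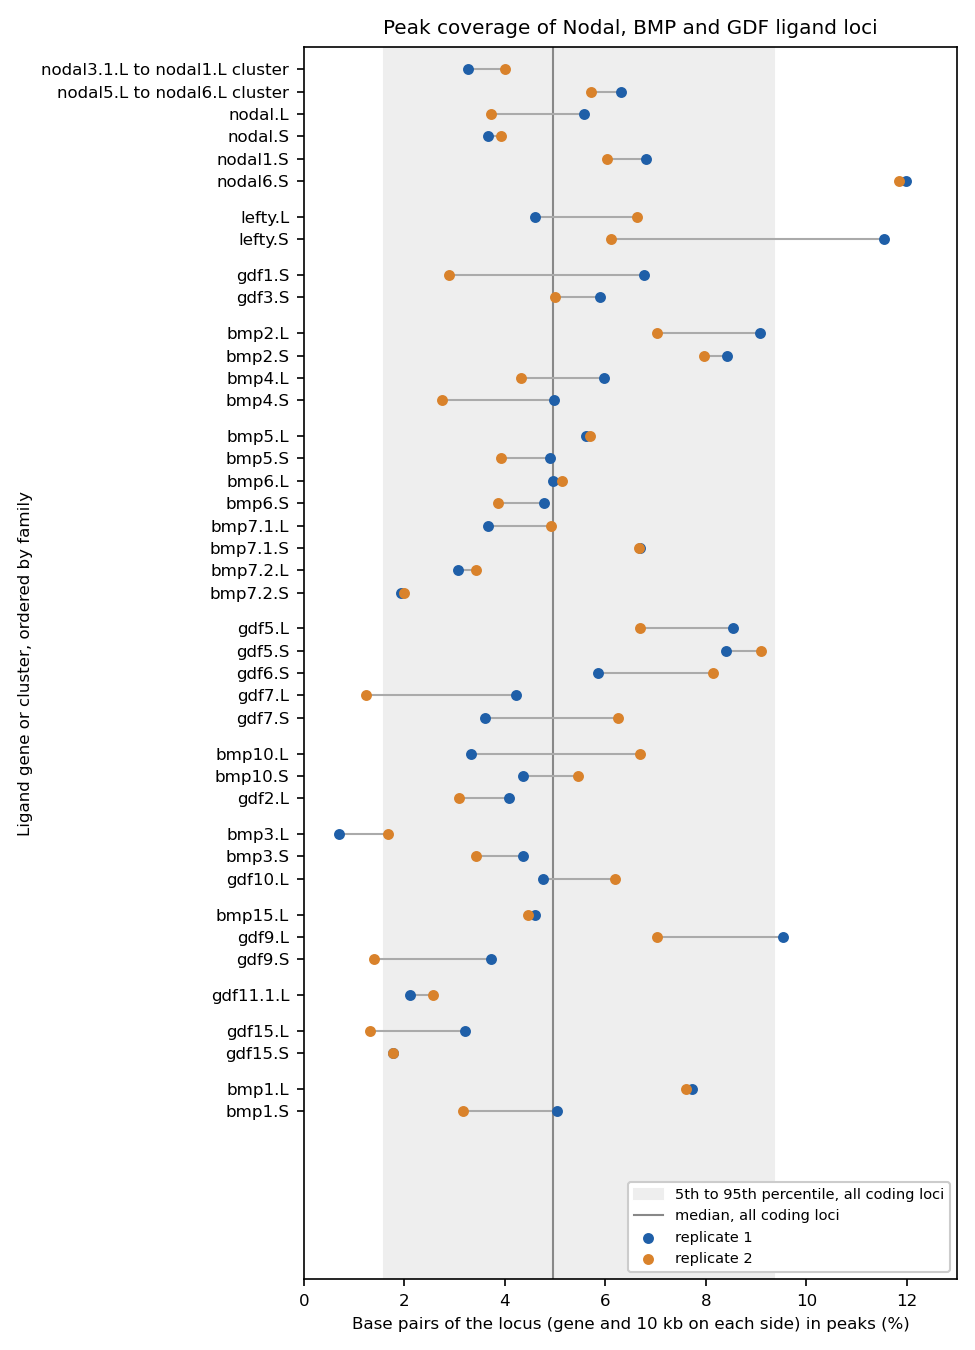
Share of each ligand locus in peaks (%, horizontal axis) for replicate 1 (blue) and replicate 2 (orange), with loci down the page by family. The grey band spans the 5th to the 95th percentile of all coding loci (1.59% to 9.35%) and the grey line their median (4.96%); nodal6.S lies right of the band in both replicates, at 11.98% and 11.84%.

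The nodal units spread between 3.64% and 11.9%. The S copy of nodal6, nodal6.S (chromosome 3S, positions 22049219 to 22051204), had 11.98% of its locus in peaks in replicate 1 and 11.84% in replicate 2. It was the highest unit in both replicates, and its mean lay above 99.0% of coding loci. Positions below and above a gene lie toward lower and higher coordinates, since the table gives no strand. It held 7 peaks in each replicate, and all 7 were shared. None of the 7 was strong, with fold enrichments of 3.59 to 5.53 in replicate 1 and 3.71 to 5.06 in replicate 2. A peak of 311 bp in replicate 1 and 349 bp in replicate 2 lay inside the gene, 673 bp and 674 bp from its upper end. The other 6 lay between 1271 bp and 9193 bp from the gene in replicate 1, on both sides, so the high share came from many spaced peaks of modest enrichment. The 1 peak farthest on the upper side overlapped the neighbouring gene LOC108712279. Of the 28 ligand genes under 10 kb 1 lay above the 95th percentile of all coding loci, against 9.75% of coding genes under 10 kb.

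On chromosome 3L the related genes form a cluster, with nodal5.L, nodal5.2.L and nodal6.L between positions 140237716 and 140264258. This unit had 6.31% in peaks in replicate 1 and 5.71% in replicate 2, with 8 and 7 peaks, of which all but 1 in replicate 1 were shared. The 2 tandem nodal5 copies each carried a peak with identical coordinates in both replicates inside the gene. In nodal5.L it spanned positions 140243741 to 140244092, ended 921 bp inside the gene, and had fold enrichments of 11.4 in replicate 1 and 10.9 in replicate 2. In nodal5.2.L it spanned positions 140249622 to 140249973, ended 891 bp inside the gene, and had fold enrichments of 8.77 and 8.25. Both peaks were 352 bp wide, and 22 of 169 shared peaks at ligand loci had identical coordinates in both replicates. The gene nodal5.2.L is 2217 bp long, so its peak lay near the middle and within 1 kb of both ends. In nodal5.L a further shared peak lay 834 bp from the lower end, with fold enrichments of 3.46 in replicate 1 and 4.83 in replicate 2. How reads were placed among tandem copies is not given in the sources used here, so the split between the 2 copies is uncertain. The third gene, nodal6.L, had no peak in the gene in either replicate, where its S copy had 1 in each. The nearest shared peak lay 5312 bp below it, with fold enrichments of 7.02 in replicate 1 and 9.45 in replicate 2.

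The second cluster on 3L, nodal3.1.L, nodal3.2.L, nodal2.L and nodal1.L between positions 141478446 and 141537107, was sparser. Nodal3, unlike the other Xenopus nodal proteins, does not induce mesoderm, while nodal1 is the family member used in left-right patterning. The unit had 3.26% in peaks in replicate 1 and 4.01% in replicate 2, with 7 peaks in each replicate, of which 4 in each were shared. No shared peak lay inside any of its 4 genes. A peak in replicate 1 lay in nodal2.L, with a fold enrichment of 3.54 and no partner in replicate 2. By the geometric mean of fold enrichment over both replicates, the measure used to rank peaks here, the highest shared peak of all ligand loci lay between nodal3.2.L and nodal2.L, 7106 bp above nodal3.2.L, at positions 141498531 to 141498919 in replicate 1. Its fold enrichment was 10.97 in replicate 1 and 11.66 in replicate 2. The highest single values were 13.3 at bmp6.L in replicate 1 and 13.3 at bmp6.S in replicate 2, where the peak crossed the edge of the locus. A peak 2200 bp above nodal3.1.L had a fold enrichment of 10.3 in replicate 1, against 5.005 for the wider peak over it in replicate 2. The clusters also hold genes outside the rule: the table lists 3 further coding genes and 1 pseudogene in the nodal3.1.L to nodal1.L unit, and 1 of each in the nodal5.L to nodal6.L unit.

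**Figure D2:**
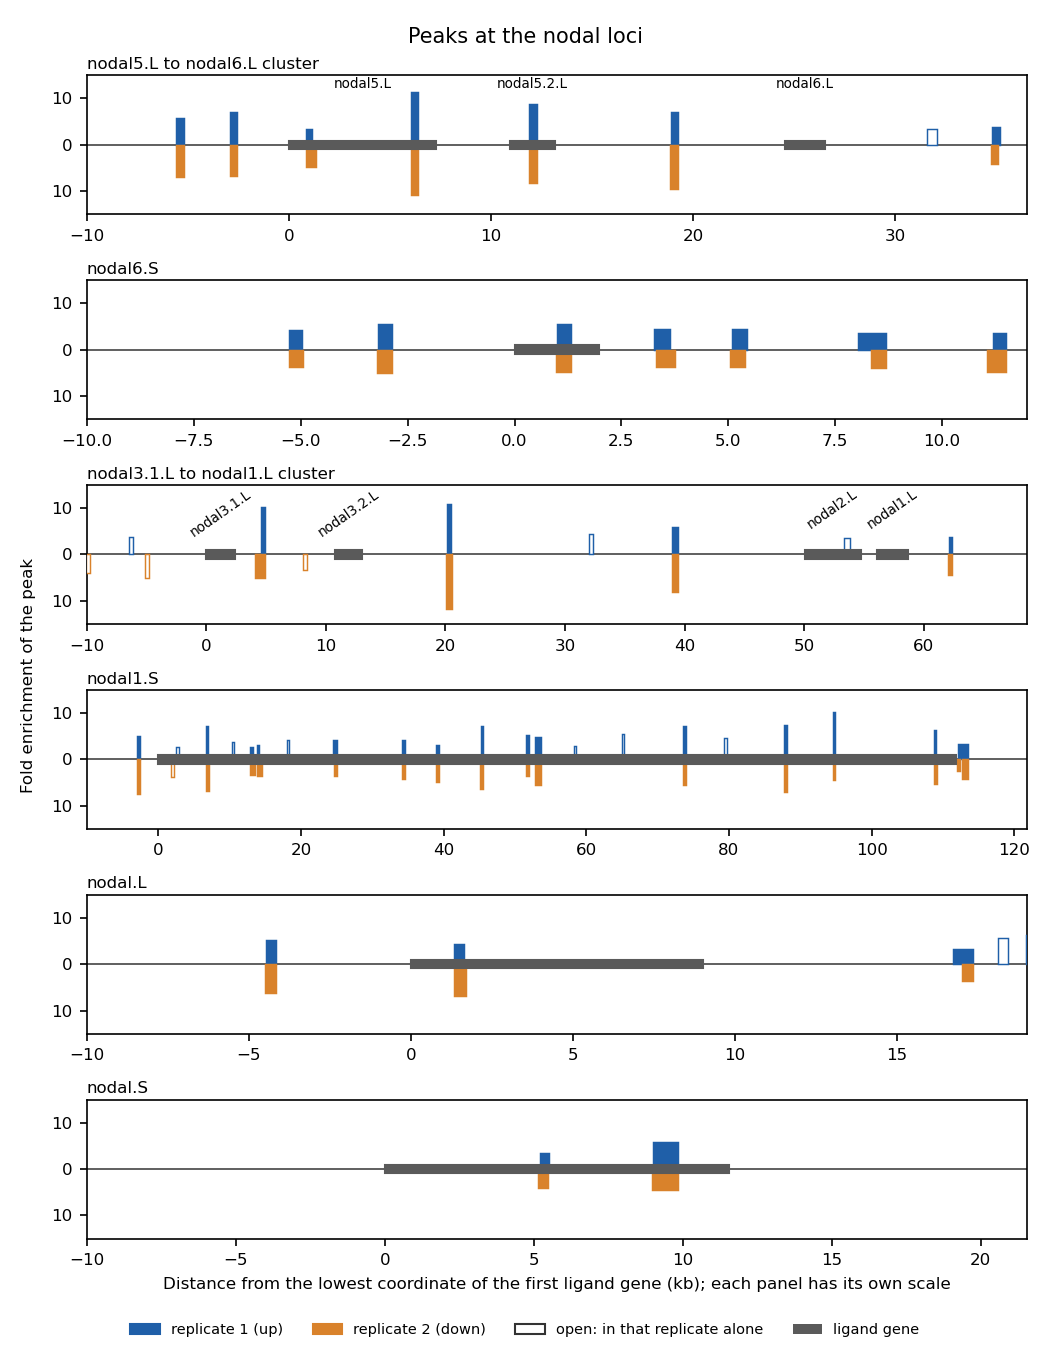
Peaks at the nodal clusters and single nodal genes, with distance from the lowest coordinate of the first gene (kb) on the horizontal axis and fold enrichment on the vertical axis, replicate 1 upward and replicate 2 downward. Filled bars are shared peaks, open bars occur in that replicate alone and grey boxes are genes; the nodal5.L and nodal5.2.L peaks (11.4 and 8.77 in replicate 1) lie inside their genes, while the tallest pair of the second cluster lies between nodal3.2.L and nodal2.L.

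The gene nodal, known as nodal4 or Xnr4, lies outside both clusters. At nodal.L 5.57% of the locus lay in peaks in replicate 1 and 3.72% in replicate 2, with 5 and 3 peaks. At nodal.S the values were 3.67% and 3.92%, with 2 peaks in each replicate, both shared and both inside the gene. Each homeolog thus had a shared peak in the gene, 1318 bp from the lower end in nodal.L and 1700 bp from the upper end in nodal.S. Fold enrichments of these were 4.38 in replicate 1 and 6.95 in replicate 2 at nodal.L, and 5.80 and 4.59 at nodal.S. The other shared peak in nodal.S was weaker, with 3.51 and 4.16, and lay 5207 bp from the lower end in replicate 1. The model of nodal1.S covers 111792 bp, against 2532 bp for nodal1.L, and overlaps tacc1.S, so its values describe a long region rather than a short ligand gene. It had 6.82% in peaks in replicate 1 and 6.03% in replicate 2, with 21 and 17 peaks, of which 8 and 5 lay in tacc1.S.

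Set against single genes, the 2 clusters averaged 4.78% in replicate 1 and 4.86% in replicate 2, and the 39 single genes 5.40% and 4.90%. The difference, clusters minus single genes, was -0.330 percentage points ± 0.411 (SD, n = 2 replicates), smaller than the spread between the replicates. The nodal5.L to nodal6.L cluster lay at 6.01% and the nodal3.1.L to nodal1.L cluster at 3.64%, and the SD over the single genes was 2.30. Within the nodal family the 4 single genes averaged 7.01% in replicate 1 and 6.38% in replicate 2, a cluster difference of -1.87 points. Of those 4, nodal6.S at 11.9% and nodal1.S at 6.43% lay above both clusters' mean of 4.82%, and nodal.L at 4.65% and nodal.S at 3.80% below it. The sign of the mean difference from all single genes turned when weak peaks were left out. With peaks of at least 3-fold enrichment it was 0.115 points, but -0.0503 in replicate 1 and 0.281 in replicate 2. With the upper 50% of peaks it was 0.847 points, with 0.324 in replicate 1 and 1.37 in replicate 2.

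Lefty, a secreted antagonist of Nodal that is itself induced by Nodal signalling, had the highest family mean, with 8.08% in replicate 1 and 6.37% in replicate 2 over its 2 genes. The replicates did not give the same order for the homeologs. At lefty.L 4.61% lay in peaks in replicate 1 and 6.63% in replicate 2, and at lefty.S 11.6% and 6.12%. The high value of lefty.S in replicate 1 came with 7 peaks against 3 in replicate 2, and the 4 without a partner had fold enrichments of 2.75 to 3.70. A shared peak lay inside lefty.S, 246 bp from its upper end, with fold enrichments of 6.57 in replicate 1 and 5.92 in replicate 2. At lefty.L the shared peaks lay farther out, 7570 bp below the gene (8.74 in replicate 1 and 7.31 in replicate 2) and 9592 bp above it (7.13 and 6.26), and the 1 peak inside the gene occurred in replicate 2 alone.

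The maternal ligand gene gdf1 and gdf3, known as derrière and active in posterior mesoderm, were each present once in the table. The gene named gdf1.S lies on chromosome 1L, and the table also lists it under the older name gdf1.L. It was the only ligand gene whose suffix differed from its chromosome, and it is grouped with L here. It had 6.77% in peaks in replicate 1 and 2.89% in replicate 2, with 3 peaks and 1 peak. Its 1 shared peak lay 1172 bp above the gene in replicate 1 and 1133 bp above it in replicate 2, with fold enrichments of 4.59 and 3.81. At gdf3.S the values were 5.89% and 4.99%, with 3 peaks in each replicate. The nearest shared peak of gdf3.S lay 6517 bp below the gene, with fold enrichments of 5.72 in replicate 1 and 8.61 in replicate 2. Neither gene had a peak inside it.

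The ventralizing ligands bmp2 and bmp4 are close relatives with different layouts of peaks. Both bmp2 homeologs lay high, with 9.07% in replicate 1 and 7.02% in replicate 2 at bmp2.L, and 8.43% and 7.97% at bmp2.S. Each had a shared peak inside the gene, 4966 bp from the lower end of bmp2.L (fold enrichment 6.62 in replicate 1 and 6.77 in replicate 2) and 4601 bp from the lower end of bmp2.S (5.52 and 5.03). In bmp2.S a further shared peak, with identical coordinates in both replicates, sat on the lower gene end, with fold enrichments of 6.003 and 3.86. Neither bmp4 homeolog had a peak inside the gene in either replicate. The bmp4 genes are shorter, with 5934 bp on L and 5743 bp on S, against 10657 bp and 12894 bp for bmp2. Among all coding genes under 10 kb, 39.5% had no peak inside, and the part of gene length in this contrast was not tested. At bmp4.L 5.98% lay in peaks in replicate 1 and 4.32% in replicate 2, and at bmp4.S 4.98% and 2.75%. Each bmp4 homeolog had a pair of shared peaks on one side of the gene. For bmp4.L these lay 4007 bp and 5491 bp below the gene, with fold enrichments of 7.27 and 4.62 in replicate 1 and 6.66 and 4.20 in replicate 2. Another lay 3236 bp above it in replicate 1. For bmp4.S they lay 4912 bp and 6650 bp above it, with fold enrichments of 4.79 and 7.52 in replicate 1 and 4.66 and 4.42 in replicate 2, so the order of the 2 peaks differed between replicates. Upstream and downstream cannot be told apart without strand.

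Of the related genes bmp5, bmp6 and the bmp7 copies, bmp7 pairs with Bmp2 or Bmp4 in heterodimers in vertebrate embryos. These 8 genes are long and averaged 4.45% in both replicates. The homeologs of bmp7.1 had 3.66% in replicate 1 and 4.91% in replicate 2 on L, and 6.68% and 6.66% on S. The homeologs of bmp7.2 had 3.07% and 3.42% on L, and 1.93% and 1.99% on S. The only shared peak at bmp7.2.S, 9251 bp above the gene in replicate 1, overlapped the neighbouring gene thsd4.S. By the mean of both replicates bmp7.2.S was the third lowest unit, but in replicate 2 it ranked 36 of 41 from the highest. By geometric mean the highest shared peak of this group lay at bmp6. At bmp6.S a peak 9680 bp below the gene (chromosome 6S, positions 75417620 to 75418283 in replicate 1) had fold enrichments of 9.41 in replicate 1 and 13.3 in replicate 2. In both replicates this peak crossed the lower edge of the locus at position 75417963. It ended at position 75418012 in replicate 2, so most of it lay outside the locus there.

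Genes of the Gdf5 to Gdf7 type, which in vertebrates act in joints, eye and dorsal neural tube, averaged 6.12% in replicate 1 and 6.28% in replicate 2 over 5 genes. The gdf5 homeologs each carried a strong peak at a similar distance from the gene, on the same side by coordinate. At gdf5.L a shared peak lay 1052 bp below the gene in replicate 1 and 1013 bp below it in replicate 2, with fold enrichments of 11.7 and 7.76. At gdf5.S a shared peak lay 862 bp below the gene in replicate 1 and 823 bp below it in replicate 2, with fold enrichments of 11.2 and 9.15. These were the strongest peaks of their loci in both replicates. Their widths in replicate 1, 342 bp at gdf5.L and 336 bp at gdf5.S, were ordinary, near the median of 324 bp over all peaks at ligand units. In all, gdf5.L had 8.53% in peaks in replicate 1 and 6.69% in replicate 2, and gdf5.S 8.40% and 9.10%. The gene gdf6 was present on S alone. It had 5.85% of its locus in peaks in replicate 1 and 8.14% in replicate 2. At gdf6.S the strongest peak in both replicates lay just above the gene, 1261 bp from it in replicate 1 and 1081 bp in replicate 2, with fold enrichments of 6.03 and 6.39. The replicates went apart at gdf7, with 4.22% in replicate 1 and 1.23% in replicate 2 at gdf7.L, and 3.61% and 6.25% at gdf7.S.

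**Figure D3:**
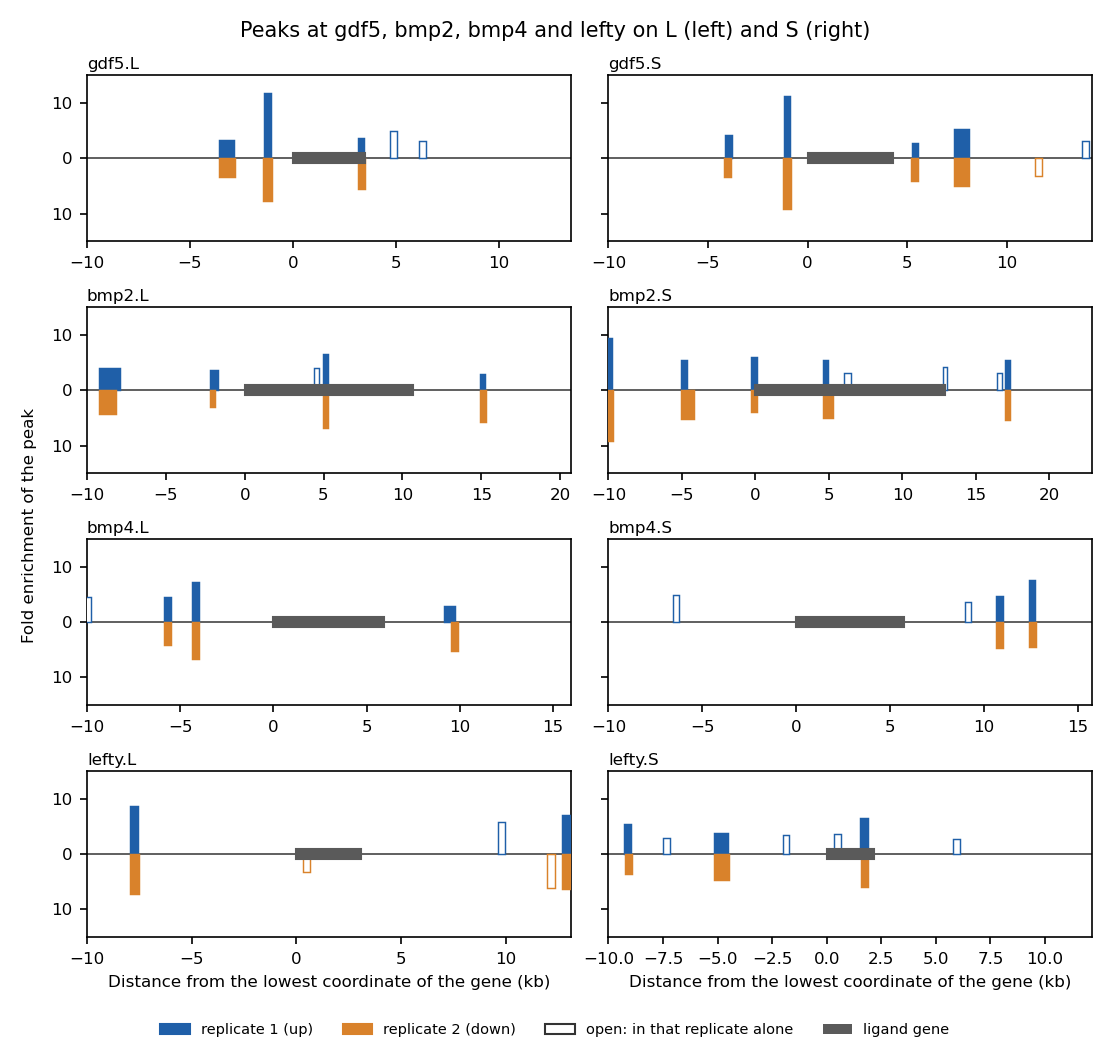
Peaks at gdf5, bmp2, bmp4 and lefty, with L homeologs on the left and S homeologs on the right; the horizontal axis gives distance from the lowest coordinate of the gene (kb) and the vertical axis fold enrichment, replicate 1 upward and replicate 2 downward. Filled bars are shared peaks, open bars occur in that replicate alone; the tallest peaks of replicate 1 lie about a kilobase below gdf5.L and gdf5.S (1052 bp and 862 bp), and the bmp4 genes hold no bar.

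The remaining families covered the rest of the range. Oocyte factor gdf9 had 9.54% in replicate 1 and 7.02% in replicate 2 at gdf9.L, and 3.73% and 1.39% at gdf9.S. Its partner bmp15.L had 4.59% and 4.47%. The shared peaks 4756 bp and 7472 bp above bmp15.L in replicate 1 overlapped the neighbouring gene rps4x.L. The genes bmp10, a cardiac ligand, and gdf2, also called BMP9, averaged 3.92% in replicate 1 and 5.08% in replicate 2 over 3 units. One of the 5 highest shared peaks by geometric mean lay 1999 bp above gdf2.L, with fold enrichments of 9.93 and 9.90. The genes bmp3, which counteracts other BMPs, and its relative gdf10 averaged 3.27% and 3.76% over 3 units. In this group bmp3.L, with a gene of 23811 bp, had 1 peak in replicate 1 and 2 in replicate 2, all outside the gene, for 0.708% and 1.67%. Its homeolog bmp3.S had 4.35% and 3.43%. The single gdf11.1.L had 2.11% and 2.58%. The stress-responsive gdf15 gave 3.199% and 1.32% on L, and 1.77% and 1.78% on S. By the mean of both replicates gdf15.S was the second lowest unit, but in replicate 2 it ranked 37 of 41 from the highest. The protease gene bmp1 had 7.72% and 7.61% on L, and 5.05% and 3.17% on S.

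Peaks lay at a gene end for a part of the ligand genes. Within 1 kb of either end, 14 of 46 ligand genes had a shared peak, against 34.2% of coding genes. These were nodal5.L, nodal5.2.L, nodal1.S, nodal6.S, lefty.S, bmp2.S, bmp5.S, bmp10.L, bmp15.L, gdf5.L, gdf5.S, gdf6.S, gdf7.L and gdf9.L. Counting any peak there, shared or not, 50% of ligand genes had one in replicate 1 and 37.0% in replicate 2, against 47.7% and 42.2% of coding genes. At 21 ligand genes, no peak of either replicate came within 1 kb of an end, against 45.8% of coding genes. The share of ligand genes with any peak within 1 kb of an end had a mean over replicates of 43.5% ± 9.22 (SD, n = 2).

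Fewer ligand genes than coding genes had a shared peak inside the gene, but the shares lay closer together within length classes. A shared peak overlapped the gene itself at 26 of 46 ligand genes, against 72.6% of coding genes. The ligand genes are short, with a median locus of 27776 bp against 37192 bp for coding genes, and the gap narrowed within length classes. Of the 28 ligand genes under 10 kb 10 had a shared peak in the gene, against 41.1% of coding genes under 10 kb. Of the 18 longer ones 16 had one, against 88.4% of coding genes of 10 kb or more. In 12 ligand genes no peak of either replicate touched the gene: nodal6.L, nodal3.1.L, nodal3.2.L, nodal1.L, gdf1.S, gdf3.S, bmp4.L, bmp4.S, gdf5.S, bmp3.L, gdf15.L and gdf15.S, of which all but bmp3.L are under 10 kb. No such peak was present in 15.4% of all coding genes and in 39.5% of those under 10 kb, where the ligands had 11 of 28.

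The short ligand genes were also covered less than the flanks beside them. In the 28 genes under 10 kb, 5.29% of the gene lay in peaks in replicate 1 and 4.06% in replicate 2, while their flanks had 5.53% and 5.33%. Of these genes 7 lie in the nodal clusters, where flanks can overlap a neighbouring ligand gene. Some peaks there therefore count more than once, or as gene for one member and flank for another. Coding genes under 10 kb had 6.73% and 6.22% in the gene and 5.42% and 5.10% in the flanks. Gene minus flank was therefore -0.235 points in replicate 1 and -1.27 in replicate 2 for short ligand genes, and 1.31 and 1.12 for short coding genes. The SD over short ligand genes was 7.83 in replicate 1 and 6.02 in replicate 2, far larger than these means. Genes are not replicates, so this was not tested.

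Over the 17 homeologous pairs, L units averaged 5.06% and S units 5.37%, and L minus S was -0.307 points ± 0.199 (SD, n = 2 replicates), with -0.448 in replicate 1 and -0.166 in replicate 2. All 7759 coding pairs gave a mean of -0.376 and a median of -0.388. The SD over the ligand pairs was 2.76, 9 pairs lay higher on L and 8 on S, and the median was 0.0980. The ligand mean was -1.14 without flanks, with -2.12 in replicate 1 and -0.165 in replicate 2. It was -0.556 with flanks of 5 kb, with -0.556 and -0.555. With the stronger 50% of peaks it was -0.0941, with opposite signs, -0.323 in replicate 1 and 0.135 in replicate 2. The pairs that hold a nodal cluster set several L genes against a single S gene, unlike the gene-to-gene pairs. Without them the sign of the mean turned, to 0.231, with 0.108 in replicate 1 and 0.355 in replicate 2. S was higher in both replicates in 4 of 17 pairs, against 42.3% of coding pairs, and these were bmp3, bmp7.1 and both nodal cluster pairs. L was higher in both replicates in 6 of 17, against 31.5%, and these were bmp1, bmp4, bmp5, bmp6, bmp7.2 and gdf9. The other 7 changed sign between the replicates.

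Single pairs differed far more than the mean. The largest difference was that of the nodal5.L to nodal6.L cluster and nodal6.S, with -5.68 points in replicate 1 and -6.13 in replicate 2. This pair sets unlike units side by side, a locus of 46543 bp with 3 genes and a locus of 21986 bp with 1 gene. For gdf9 the difference was 5.80 and 5.63, in favour of L, and for bmp1 2.68 and 4.44. In these 3 pairs, named for the size of their mean difference, the L and S values did not overlap between replicates. The same held for bmp3, bmp5, bmp6, bmp7.1, bmp7.2 and the other nodal cluster pair. The share of coding pairs without overlap was not counted. The nodal3.1.L to nodal1.L cluster differed from nodal1.S by -3.56 and -2.02 points. These units are also unlike, with a locus of 78662 bp for the cluster and 131792 bp for the long nodal1.S model that overlaps tacc1.S. The smallest mean differences were those of bmp10, bmp2 and gdf15, at 0.0980, -0.150 and 0.482 points. In each of these the 2 replicates had opposite signs, as in bmp10 with -1.04 in replicate 1 and 1.23 in replicate 2. A small mean in these pairs was therefore an average of opposed values. The lefty pair, with -6.94 in replicate 1 and 0.517 in replicate 2, showed the widest disagreement.

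**Figure D4:**
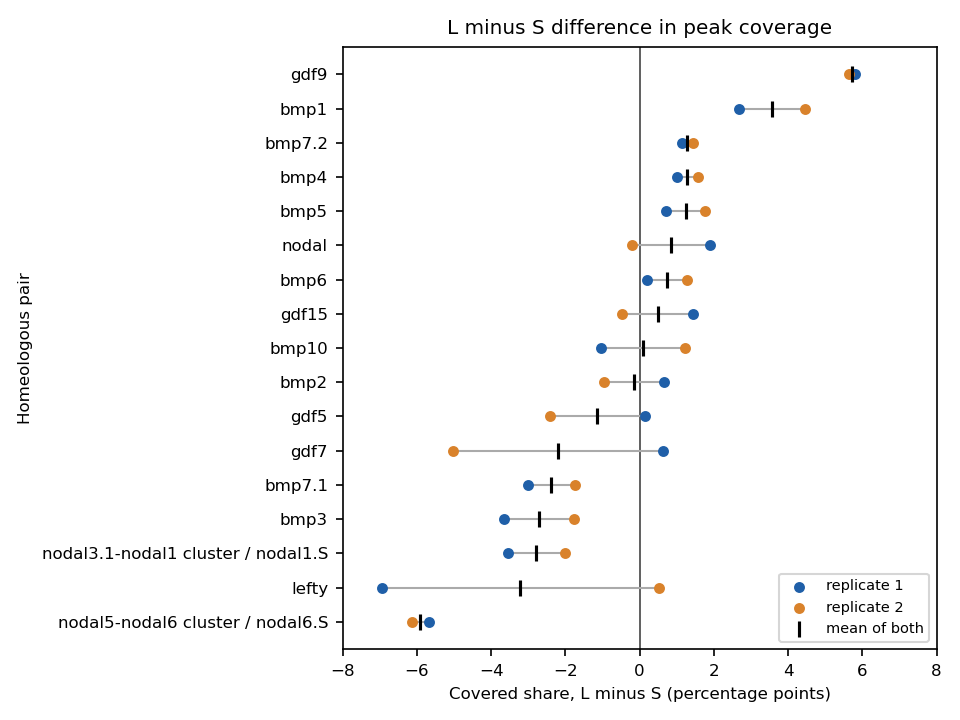
Difference in covered share, L minus S (percentage points, horizontal axis), for each of 17 homeologous pairs, with replicate 1 in blue, replicate 2 in orange and the mean as a black tick; values right of 0 are higher on L. The gdf9 pair (5.80 and 5.63) and the nodal5-nodal6 pair (-5.68 and -6.13) mark the ends by the mean, while the lowest single value is lefty in replicate 1 (-6.94) and 7 pairs have replicates on either side of 0.

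Over the 169 shared peaks of replicate 1 at ligand loci, Spearman's rho of fold enrichment was 0.611, across peaks that share a library and are not independent. The 38 shared peaks at nodal loci had fold enrichments of 2.67 to 11.4 in replicate 1 and 3.33 to 11.7 in replicate 2, and the 131 at other ligand loci 2.69 to 13.3 and 2.70 to 13.3. Many peaks at ligand units had the smallest width seen there, 310 bp for 97 of 249 peaks in replicate 1 and 349 bp for 94 of 212 in replicate 2. The share at that width over all peaks of the genome was not counted. A peak of the smallest width covers more bp in replicate 2 than in replicate 1, and covered shares are not corrected for this.

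**Figure D5:**
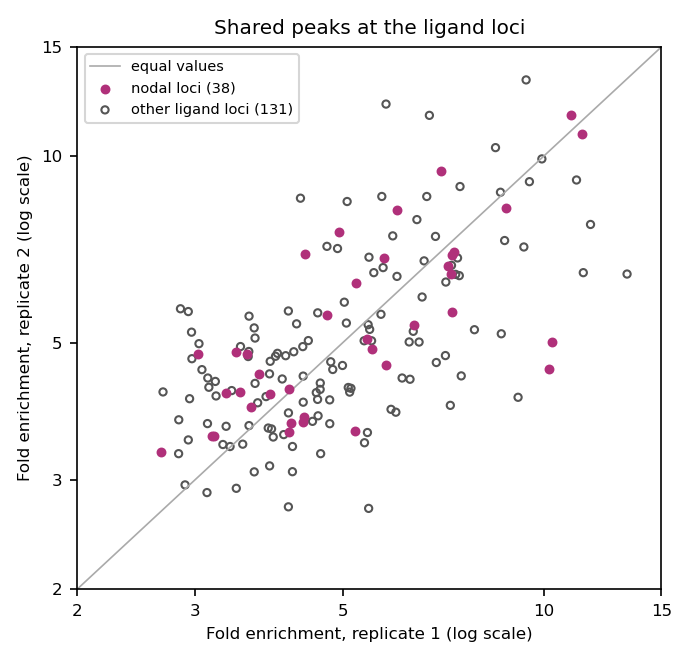
Fold enrichment of shared peaks at ligand loci, replicate 1 on the horizontal and replicate 2 on the vertical axis (both log scale), for 38 peaks at nodal loci (filled) and 131 at other ligand loci (open). The grey line marks equal values, and nodal and other peaks spread over like ranges (rho 0.611 over all 169).

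Other genes of the pathway had mean covered shares of 4.72% to 5.61% by list. The 20 receptor and co-receptor genes averaged 5.005% in replicate 1 and 5.07% in replicate 2, and the 19 Smad and foxh1 genes 5.62% and 5.60%. The 22 genes for extracellular regulators and bambi, which hold Noggin, Follistatin, Cerberus and Tolloid-like genes, averaged 4.601% and 4.84%. The symbols chrd and smad5 were sought but gave no match, so Chordin and Smad5 are not in these lists. A shared peak in the locus was present at 20 of 20, 19 of 19 and 20 of 22 genes, and a shared peak in the gene itself at 18, 19 and 11, against the 95.1% and 72.6% of all coding genes given above. Most receptor and transducer genes are 10 kb or longer, and 88.4% of coding genes of that length had a shared peak in the gene. Among the receptors, acvr2b.S was highest, with 9.53% in replicate 1 and 8.66% in replicate 2. Of the transducers foxh1.2.L, a copy of the Nodal-responsive transcription factor gene, was highest, with 8.10% and 10.2%. Of the extracellular regulators nog2.L was highest by the mean of both replicates, with 8.06% and 9.44%, and nog2.S had 7.38% and 7.75%. Noggin genes differed widely, since the dorsal BMP antagonist gene nog.L had no peak within 10 kb in either replicate. All 46 ligand genes had a peak in the locus in each replicate. So did 33963 of 34461 coding genes in replicate 1 and 33567 in replicate 2, so the ligand genes lay near that background. The homeolog nog.S had 1.41% and 5.44%. These lists differ in gene length, with median loci of 73980 bp for receptors and 27356 bp for the extracellular regulators, and differences between them were not tested.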

How the data were processed

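CATaDa was run on 2 replicates of Dam-injected embryos. Per the methods, the authors processed reads with the damidseq pipeline, aligned them to assembly v10.1 with Bowtie2 and called broad peaks per replicate with MACS (3.0.1). The control and threshold of calling are not given in the sources used here. The deposited lists hold other values, the peak positions (used here from base 1), a score (not used), a ratio (fold enrichment, over the caller's background) and −log10 p and q values. No −log10 q lay under 1.00.

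Peaks were intersected with the RefSeq gene table, which has no strand, so either gene end stood for the start. Coverage was bp in peaks over locus bp. Python 3.11.15, numpy 2.4.6 and pandas 2.3.3 were used, and the procedures were tested on simulated data. No test was run, since the series holds 1 group.

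The members and lists were chosen with earlier results of these data known. Named were all nodal units and lefty genes, the 3 highest and 3 lowest units, the 3 largest and 3 smallest pair differences, bmp2, bmp4, bmp7, gdf1, gdf3 and gdf6, the 5 shared peaks highest by geometric mean fold enrichment, and genes with a shared peak at an end. All other genes named were chosen after their values were seen. Alternatives varied the peak threshold, flank, overlap, units, windows and replicates.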

Additional observations from a re-analysis of the deposited data

How the results depend on the processing

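No paired analysis was possible because the series holds 1 group. Of 46 alternatives that kept both replicates, 25 kept the sign and moved a result by less than the spread between replicates. Another 17 moved it further and 4 reversed its sign. For shared loci the spread was replaced by a 95% interval over the 46 genes, a yardstick only, since it treats genes as independent. With only the stronger 50% of peaks of each list, mean coverage was 2.56%, with 62.5% shared peaks and 0.847 points for clusters minus single genes. L minus S was then -0.0941 points, with opposite signs in the replicates. In that setting 22.8% of genes had an end peak and 76.1% of loci a shared peak. A −log10 q of at least 2 gave 4.797% coverage and 0.0271 points for clusters minus single genes, and at least 3-fold enrichment 4.71% and 0.115 points. In both settings the cluster difference was negative in replicate 1 and positive in replicate 2. With no flank, coverage was 4.77%, L minus S -1.14 points (-2.12 in replicate 1 and -0.165 in replicate 2) and loci with a shared peak 56.5%. With 5 kb, clusters minus single genes was -0.834 points, L minus S -0.556 points and loci with a shared peak 80.4%, and with 20 kb the cluster difference was -0.777 points. Windows of 500 bp and 2 kb gave 22.8% and 65.2% of genes with an end peak. Leaving out the nodal cluster pairs gave 0.231 points for L minus S, and comparing clusters with nodal single genes, an alternative chosen after seeing the data, -1.87 points. Leaving out 1 replicate gave coverage of 4.90% to 5.37%, shared peaks of 67.9% to 78.8%, cluster differences of -0.620 to -0.0393 points, L minus S of -0.448 to -0.166 points and end peaks of 37.0% to 50%. A higher threshold leaves fewer peaks and a wider window holds more sequence, but the cause of the shifts under these alternatives was not tested. Depth is unknown and replicates are only 2. The gap between replicates at a unit had a median of 0.968 points and a mean of 1.35 points. Many units differed by more, so a difference above 1 point at a single locus can still lie within that gap.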
